A study of Rattus norvegicus with 20 samples.

Results

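The genes described here are the drug and xenobiotic metabolising enzymes of the rat ovary: cytochromes P450 of families 1 to 4, UDP-glucuronosyltransferases, sulfotransferases and cytosolic or mitochondrial glutathione S-transferases. Members were all rat genes whose symbol begins with Cyp1, Cyp2, Cyp3 or Cyp4 and a letter, with Ugt1, Ugt2 or Sult, or with Gst and a, k, m, o, p or t, without Cyp1a1 and Cyp1b1. Of 151 such genes in the gene table, 96 had a probe on the array, out of 15715 named genes on it, and the brightest probe stood for each gene. Female Sprague Dawley rats were the offspring of dams fed a mixture of brominated flame retardants, made of the polybrominated diphenyl ether products DE-71, DE-79 and BDE-209 with hexabromocyclododecane. Dams ate the diet from at least a week before mating until weaning at day 21, and whole ovaries of the daughters were taken at day 46. There were 5 daughters of dams on control diet (0 mg/kg/day), and for the nominal daily doses of 0.06, 20 or 60 mg per kg there were 4, 5 and 6 daughters, each from another litter per the series' design, and the submitters left out one animal at 0.06 mg/kg/day as an outlier. The arrays describe ovaries some weeks after the dams' dosing ended.

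Phase I enzymes such as the cytochromes P450 oxidise foreign compounds and many steroids and fatty acids. Phase II enzymes then attach glucuronic acid, sulfate or glutathione, which makes the products more soluble and easier to export. Liver is the main site of the pathway, where the receptors CAR, PXR and AHR raise its genes on contact with many halogenated chemicals, and the ovary carries a smaller set that also meets steroid hormones and lipid peroxides. The comparisons ask which of these enzymes have a signal in the ovary and whether any differs with the dose given to the dams.

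Levels are log2 signals with each array's 75th percentile set to 0, so a level of -3 lies 3 doublings below it, and levels of different probes are not comparable with each other. That percentile ran from 1158 to 1737 intensity units, and 74.8% to 83.4% of the spots on an array were well above background, a call the scanner software makes for each spot. The arrays came on 3 slides, each with all 4 dose groups. The tissue label held against its markers: all 5 granulosa, all 5 theca and interstitial and all 5 luteal markers with a probe were well above background on all 20 arrays. Of the 6 hepatocyte markers, 3 were on all 20 arrays, and Alb, the albumin gene and their defining marker, was on 2. Of the markers of tissue beside the ovary, 3 of 4 oviduct epithelium genes and 2 of 4 adipocyte genes were on all 20 arrays. Arrays stood apart within the groups. Cyp17a1, the theca enzyme of androgen synthesis, lay between -3.52 and -2.62 on 5 arrays (control 3, 0.06 replicate 1, 20 replicates 2 and 5, and 60 replicate 5) and between 1.71 and 3.86 on the other 15. Akr1c18, the luteal enzyme that inactivates progesterone, lay at -4.23 on control 5 and -2.48 on 0.06 replicate 2, and between 5.28 and 7.05 on the other 18.

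The ovary had a signal for most glutathione S-transferases and for few of the other conjugating enzymes. Of the 96 enzyme genes, 40 were well above background on all 20 arrays, 19 on 4 to 19 arrays, 10 on 1 to 3 and 27 on 0. The share on all 20 arrays was 41.7%, where it was 71.7% of the 15705 named genes measured on every array. Among the glutathione S-transferases it was 20 of 23, among P450 family 4 genes 9 of 14, among family 2 genes 8 of 30, among UDP-glucuronosyltransferases 2 of 11 and among sulfotransferases 1 of 12. None of the 5 family 3 genes was on all arrays: Cyp3a9 was on 1 array and the other 4, the PXR targets of liver, on 0. Cyp1a2, an AHR target of liver, was well above background on 1 array.

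**Figure D1:**
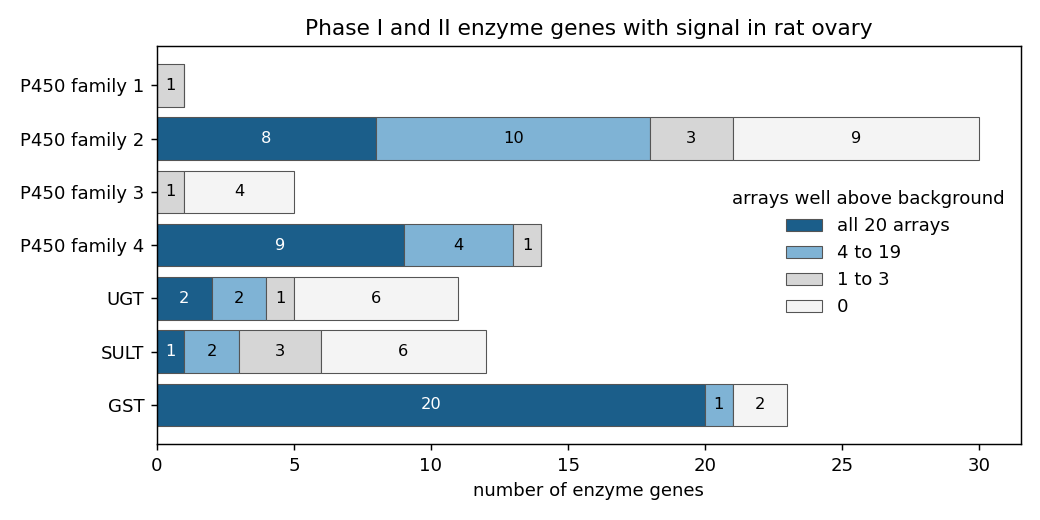
Number of enzyme genes (x axis) in each enzyme family (y axis), split by the number of the 20 arrays on which the brightest probe was well above background. Dark blue bars are genes on all 20 arrays, 20 of the 23 glutathione S-transferases (GST) and 1 of the 12 sulfotransferases (SULT); UGT stands for UDP-glucuronosyltransferases.

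In P450 family 2, presence differed by subfamily. Of the 8 Cyp2c genes 0 were on all arrays, and Cyp2c11, the male-specific steroid hydroxylase of rat liver, was on 5. Of the 5 Cyp2b genes, Cyp2b3 was on all 20 arrays (-6.21 to -4.77), Cyp2b15 on 17, Cyp2b2 on 14, Cyp2b12 on 4 and Cyp2b21 on 0. Cyp2a1, a testosterone hydroxylase, was on 20 (-6.71 to -4.91) and Cyp2e1, which oxidises ethanol, on 20 (-5.38 to -3.77). Cyp2r1, a vitamin D 25-hydroxylase, was on 19 arrays. The other family 2 genes on all 20 arrays were Cyp2j3 (-3.91 to -2.39) and Cyp2j4 (-1.78 to -0.75), which epoxidise arachidonic acid, with Cyp2d4 (-3.78 to -2.85), Cyp2s1 (-4.19 to -2.41) and Cyp2t1 (-0.71 to 0.75). Cyp2j10 was on 18 arrays (-7.66 to -6.05), Cyp2c7 on 11 (-8.20 to -6.45), Cyp2a2 and Cyp2f4 on 3 each and Cyp2c24 on 1. The other Cyp2c7 probes were on 0 arrays, so the probes disagree on whether Cyp2c7 has a signal.

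P450 family 4 enzymes hydroxylate the end carbon of fatty acids and eicosanoids. Of the 7 Cyp4f genes 6 were on all 20 arrays: Cyp4f6 (1.07 to 1.55), Cyp4f5 (-1.52 to -0.33), Cyp4f17 (-1.76 to -1.32), Cyp4f1 (-4.51 to -2.34), Cyp4f4 (-6.66 to -4.24) and Cyp4f40 (-5.99 to -4.84), while Cyp4f18 was on 9. Cyp4v3 (-3.71 to -2.57) and Cyp4b1 (-5.67 to -2.97) were on all 20 and Cyp4x1 on 16. Of the Cyp4a genes, some of which are PPAR alpha targets in liver, Cyp4a8 was on 20, Cyp4a1 on 15, Cyp4a2 on 11 and Cyp4a3 on 1. The Cyp4a8 call rests on one probe, which lay between 3.48 and 4.97. A second probe assigned to Cyp4a8 lay between -9.43 and -7.20 and was well above background on 1 array, so the 2 probes disagree on whether the gene has a signal.

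All but 3 glutathione S-transferases were on all 20 arrays. In the alpha class, which reduces lipid hydroperoxides and conjugates lipid aldehydes, these were Gsta1 (4.73 to 6.38), Gsta2 (0.24 to 3.54), Gsta3 (3.18 to 5.05), Gsta4 (4.38 to 4.91), Gsta5 (1.16 to 3.25) and Gsta6 (0.70 to 1.27). In the mu class they were Gstm1 (1.66 to 2.52), Gstm2 (1.39 to 2.74), Gstm4 (-1.84 to -0.78), Gstm5 (-0.50 to 0.78), Gstm6 (-5.07 to -3.25), Gstm6l (-3.92 to -2.20) and Gstm7 (0.04 to 2.01), and Gstm3 was on 8 arrays. The pi enzymes Gstp1 (2.17 to 2.65) and Gstp3 (-5.49 to -4.02), the omega enzymes Gsto1 (1.08 to 1.65) and Gsto2 (-6.22 to -4.95), which also reduce dehydroascorbate, the theta enzymes Gstt1 (1.80 to 3.05) and Gstt2 (0.10 to 0.73) and the mitochondrial Gstk1 (-0.58 to 0.38) completed the 20. Gsta4l1 and Gstt4 were on 0 arrays. A second Gsta3 probe was on 11 arrays and ran from -8.77 to -4.17. Alpha genes have near-identical copies, and their probes may share signal.

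Among the other conjugating enzymes, Ugt1a6, which glucuronidates small planar phenols, ran from -1.07 to 0.48 and Ugt1a9 from -6.11 to -4.94, both on 20 arrays. Many Ugt2b enzymes conjugate steroids in liver. Ugt2b10 and Ugt2b15 were each on 17 arrays, Ugt2b1 on 1, and the other 6 Ugt2 genes on 0. The phenol sulfotransferase Sult1a1 was the one sulfotransferase on all 20 arrays (-0.49 to 1.41). Sult1b1, which sulfates thyroid hormones among other phenols, was on 18, Sult1c2a on 6, Sult1c2 on 2, and Sult2b1 and Sult2a6, of the hydroxysteroid class, on 1 each. A second Sult1c2a probe was on 0 arrays, so its probes disagree as well. The hydroxysteroid sulfotransferases Sult2a1 and Sult2a2 were on 0. With any probe of a gene in place of the brightest, the count on all 20 arrays was 40 again. With the scanner's weaker call of a signal positive and significant against background, it was 55 of 96, and 8 genes were on 0 arrays.

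No enzyme gene differed with dose by the test. The 59 genes well above background on at least 4 arrays were tested with limma among 23795 probes, with p-values adjusted over all of them by Benjamini-Hochberg. For each dose against control, in the trend over dose order and in the joint test of all doses, 0 of 59 were called at an adjusted p under 0.05, where 0% of all probes were called. The lowest adjusted p among the enzymes was 1.00, 0.933 and 0.777 at the 3 rising doses. An unadjusted p under 0.05 was found for 2, 1 and 2 of the 59 (3.39%, 1.69% and 3.39%), where 3.06%, 4.57% and 6.34% of all probes had one. It was found for 1 of 59 in the trend (5.75% of all probes) and 2 of 59 in the joint test (3.25%). Under each alternative run, limma also called 0.

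The enzyme differences centred near 0. The median log2 difference from control was 0.05, 0.11 and -0.04 over the 59 genes at the 3 rising doses, beside -0.03, 0.03 and -0.04 over all probes tested. The dosed mean lay above the control mean for 34, 42 and 24 of the 59, where it did for 43.5%, 57.9% and 39.4% of all probes. In 0 of the 59 did every animal of a dose group lie above every control, where 0.303%, 0.357% and 0.219% of all probes did, and in 0 of the 59 did every animal lie below, where 0.324%, 0.235% and 0.252% did. The 95% interval of the difference lay within 2-fold either way for 40, 44 and 43 of the 59, beside 82.5%, 83.3% and 83.3% of all probes. For the other 19, 15 and 16 enzymes a 2-fold difference lay within the interval. By family, the median difference at 60 mg/kg/day was -0.01 over the 21 tested glutathione S-transferases, -0.14 over the 18 genes of P450 family 2, -0.05 over the 13 of family 4, 0.14 over the 4 UDP-glucuronosyltransferases and 0.13 over the 3 sulfotransferases.

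**Figure D2:**
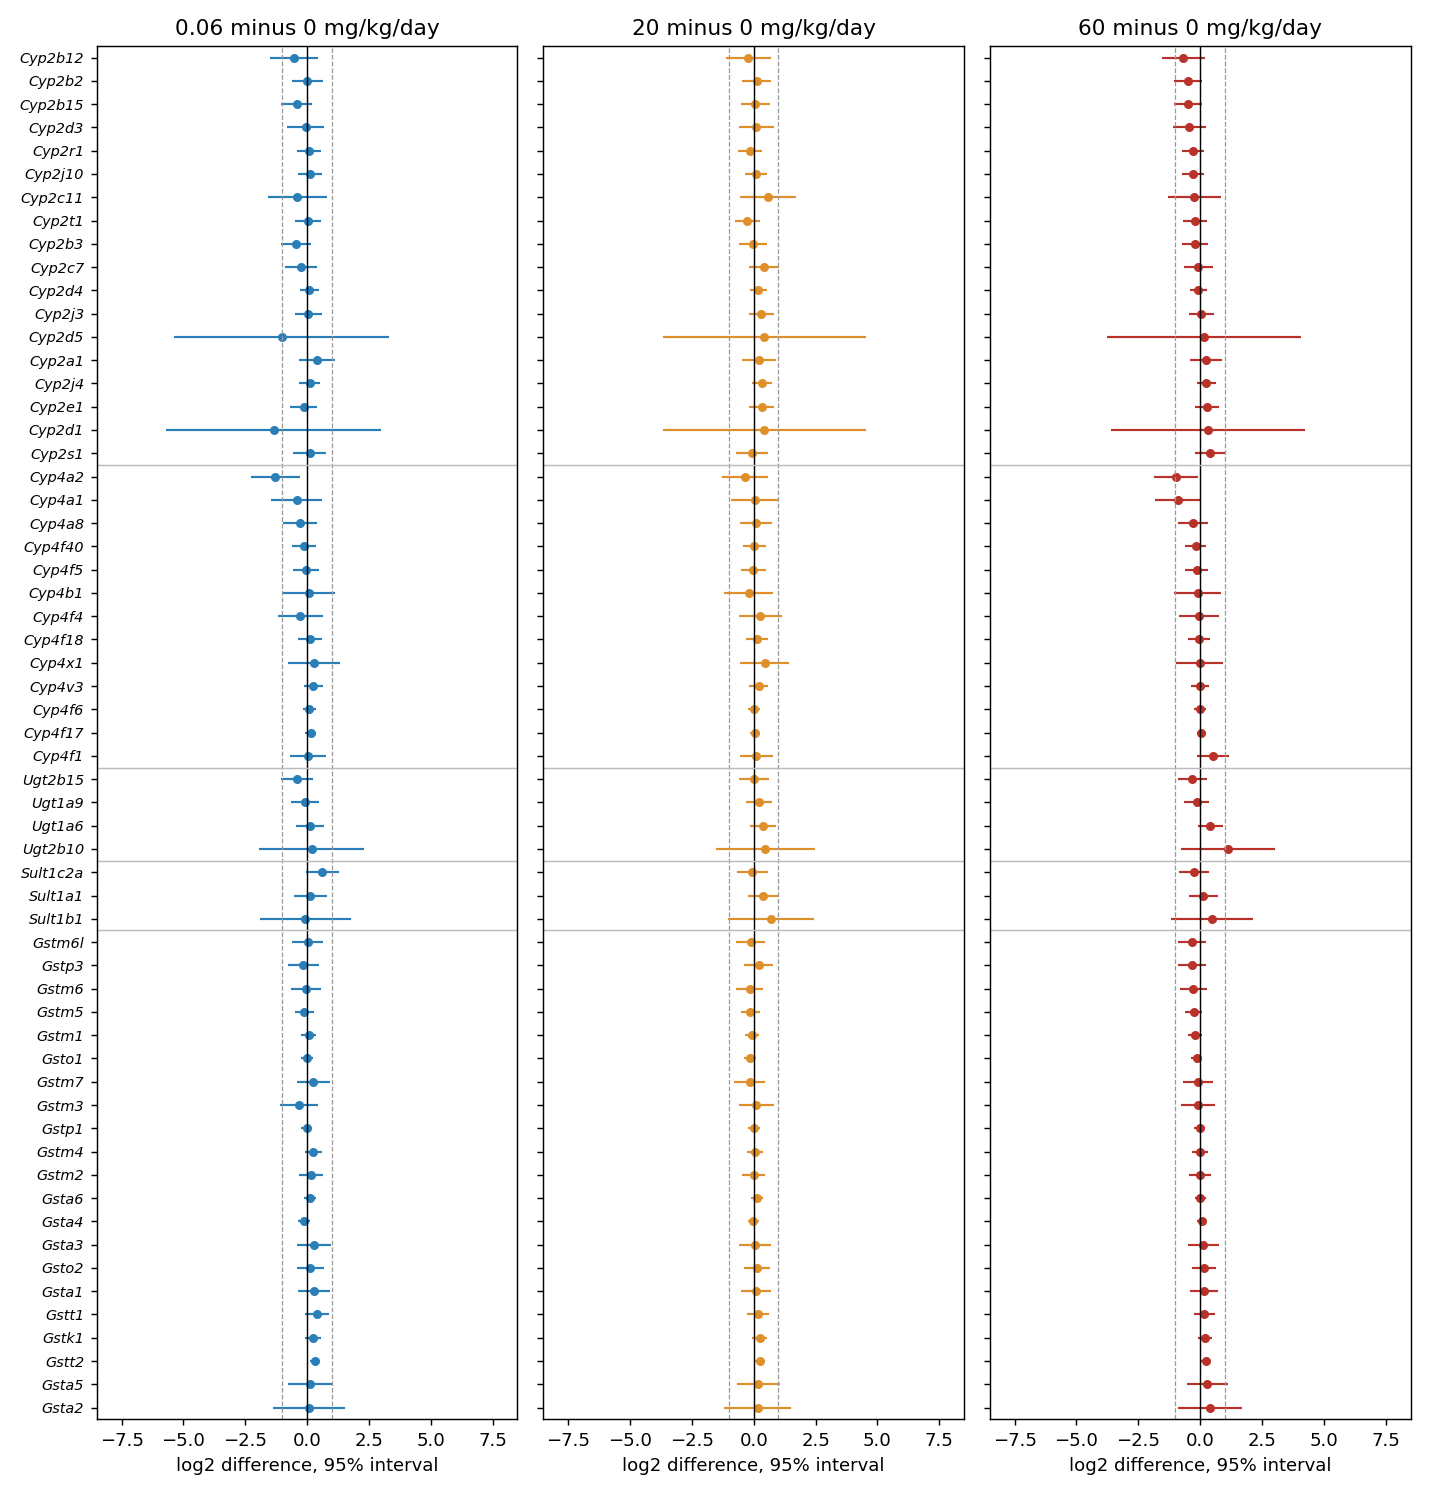
Log2 difference of each dose group from control (x axis, point) with its 95% interval (line) for the 59 tested enzyme genes (y axis), grouped from the top as P450 family 2, P450 family 4, UGT, SULT and GST. Dashed lines mark a 2-fold difference; no gene passed the adjusted test at any dose, and Cyp2d1 and Cyp2d5 have the widest intervals.

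Gstt2 had the smallest unadjusted p of the enzymes at all 3 doses. It encodes a theta-class transferase, a class that conjugates small halogenated compounds and sulfate esters. Control levels were 0.10, 0.29, 0.23, 0.34 and 0.55. At 0.06 mg/kg/day they were 0.66, 0.68, 0.45 and 0.73, and those of the middle dose were 0.44, 0.54, 0.54, 0.60 and 0.68. At 60 mg/kg/day they were 0.68, 0.56, 0.41, 0.43, 0.42 and 0.63. Control 5 overlapped each dosed group, while the other 4 controls lay below all 15 dosed animals. The differences from control were 0.33 ± 0.10, 0.26 ± 0.09 and 0.22 ± 0.09 log2 (SE) at the 3 rising doses, with limma's adjusted p of 1.00, 0.933 and 0.777, so Gstt2 did not pass at any dose. Above all 5 controls lay 3 of 4, 2 of 5 and 3 of 6 animals. The 3 comparisons share their controls. Within slides 1, 2 and 3 the difference at 60 mg/kg/day was 0.43, 0.19 and 0.19. Gstt1, its neighbour in class, differed by 0.38 ± 0.23, 0.18 ± 0.22 and 0.17 ± 0.21 and did not pass either (limma).

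Cyp4a2, a fatty acid hydroxylase, was the other gene with a small unadjusted p. Its control levels were -6.90, -6.89, -6.92, -5.68 and -5.83. They were -8.31, -7.57, -8.78 and -6.23 at 0.06 mg/kg/day and -6.74, -7.00, -6.67, -6.55 and -6.99 in the middle group. Animals of the highest dose had -7.04, -8.74, -6.43, -7.50, -7.95 and -6.81. The dosed groups overlapped the controls, with 3 of 4, 2 of 5 and 4 of 6 animals below all controls. All 5 controls were well above background, against 1 of 4, 3 of 5 and 2 of 6 dosed animals, so the low values are at the edge of what the arrays measure. The differences were -1.28 ± 0.48, -0.35 ± 0.45 and -0.97 ± 0.43 log2 (SE), with limma's adjusted p of 1.00, 0.942 and 0.777. The 2 highest controls were on slide 3, and with slide as a block the difference at 60 mg/kg/day was -0.77 (unadjusted p = 0.056, limma).

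Of the enzymes that the liver receptors regulate, Cyp1a2 and the 5 Cyp3a genes were too dim to be tested. Cyp2b2, which phenobarbital induces in rat liver, did not pass (limma) and differed by 0.01 ± 0.30, 0.13 ± 0.28 and -0.51 ± 0.27 log2 (SE) at the 3 rising doses, and Cyp2b15 by -0.43 ± 0.29, 0.07 ± 0.28 and -0.49 ± 0.26. A second Cyp2b2 probe differed by -0.15 at 60 mg/kg/day. Both genes had their highest mean on slide 3, which held 2 controls and 1 animal of that dose. Ugt1a6, an AHR target, did not pass either and differed by 0.11 ± 0.26, 0.36 ± 0.25 and 0.42 ± 0.24. Among the most precise estimates for 60 mg/kg/day were Gsta4 at 0.07 ± 0.10, Gstp1 at -0.02 ± 0.10, Cyp4f6 at 0.00 ± 0.11 and Cyp4f17 at 0.04 ± 0.09. Sult1b1 stood at 0.49 ± 0.79 and Ugt2b10 at 1.13 ± 0.91, and Cyp2d1 and Cyp2d5 were the least precise.

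Some enzymes varied widely between animals within every dose group. The range over the 20 arrays passed 4 log2 in 4 of the 59 enzymes (6.78%), Cyp2d1, Cyp2d5, Ugt2b10 and Sult1b1, where it did in 2.39% of all probes tested. It passed 2 log2 in 16 of 59 (27.1%), beside 17.9% of all probes. Whether fewer cells of a type or less RNA per cell lies behind a low value cannot be told apart in whole ovaries.

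Cyp2d1 and Cyp2d5, P450s of the subfamily that oxidises many basic drugs, were present or absent together. Cyp2d1 stood at -9.56, -3.33, -2.33, -3.41 and -4.30 in the controls and at -3.72, -9.13, -1.62 and -9.27 at 0.06 mg/kg/day. In the middle dose group it stood at -2.47, -9.39, -1.998, -3.32 and -3.56, and in the highest at -3.23, -1.84, -1.60, -8.51, -8.65 and -1.69. Each group held both kinds of animal, with 4 of 5, 2 of 4, 4 of 5 and 4 of 6 well above background from 0 to 60 mg/kg/day. Cyp2d5 was well above background in the same numbers: -9.46, -3.18, -2.18, -3.34 and -4.06 in the controls, -3.67, -8.73, -1.38 and -8.10 at 0.06, -2.43, -9.30, -1.75, -3.20 and -3.36 at 20, and -3.21, -1.81, -1.48, -8.85, -8.86 and -1.55 at 60. The 6 animals without a signal were the same for both genes: control 1, 0.06 replicates 2 and 5, 20 replicate 2, and 60 replicates 4 and 5. They lay on all 3 slides. No animal lay between -8.10 and -4.30 for either gene. Differences from control at 60 mg/kg/day were 0.33 ± 1.86 and 0.15 ± 1.87 log2 (SE), so these arrays could not resolve a dose difference of several-fold in either gene.

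Cyp2d4 did not share that pattern. In the 6 animals without Cyp2d1 signal, Cyp2d4 lay at -3.78, -2.95, -3.38, -2.92, -3.42 and -2.88, against -3.60 to -2.85 in the others, with control 1 below that range. Cyp2d3 was on 9 arrays (-8.19 to -6.20) and Cyp2d2 on 0, so both were too dim to show a fall of that size. In assembly GRCr8 the genes follow each other on chromosome 7 as Cyp2d4, Cyp2d5, Cyp2d1, Cyp2d3 and Cyp2d2, between Ndufa6 and Tcf20. The stretches before the starts of 3 of them are shown because Cyp2d1 and Cyp2d5, which went together, and the dim Cyp2d3 are close copies there. They are RefSeq sequences of GRCr8, 5′ to 3′ on the minus strand, up to 250 bases that end at the gene's start or, for Cyp2d5, at the end of its annotated span, with the longest run shared by all 3 (34 bases) in capitals.
Cyp2d1 chr7:115793431-115793680: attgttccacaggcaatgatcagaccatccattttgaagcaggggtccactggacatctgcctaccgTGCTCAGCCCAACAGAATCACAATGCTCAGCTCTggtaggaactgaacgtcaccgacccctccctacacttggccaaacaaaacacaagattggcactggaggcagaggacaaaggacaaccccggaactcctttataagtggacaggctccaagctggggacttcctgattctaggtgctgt
Cyp2d5 chr7:115784555-115784737: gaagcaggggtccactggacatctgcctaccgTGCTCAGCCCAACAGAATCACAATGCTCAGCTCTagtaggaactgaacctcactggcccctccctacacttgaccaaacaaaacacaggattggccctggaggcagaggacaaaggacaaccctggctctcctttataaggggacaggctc
Cyp2d3 chr7:115802143-115802392: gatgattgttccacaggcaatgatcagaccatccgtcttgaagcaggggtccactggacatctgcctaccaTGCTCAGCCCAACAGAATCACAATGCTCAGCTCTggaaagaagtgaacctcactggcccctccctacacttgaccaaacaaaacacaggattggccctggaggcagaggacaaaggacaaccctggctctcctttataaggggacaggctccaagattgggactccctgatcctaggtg
Aligned without gaps, Cyp2d1 and Cyp2d5 were identical at 172 of 183 bases (94.0%), Cyp2d1 and Cyp2d3 at 226 of 246 (91.9%), and Cyp2d5 and Cyp2d3 at 178 of 183 (97.3%). By these counts Cyp2d5 was closer to Cyp2d3 than to Cyp2d1, and the part of these bases in the levels was not tested. All 3 hold TATAA, the core of a TATA box, on either strand, as do 24.0% of the 33469 rat promoter stretches of 250 bases. The Cyp2d5 stretch is shorter than those, at 183 bases. A match is a description of letters and not a site. Transcripts of near-identical genes can bind each other's probes, and with no probe sequences used here, 1 gene read by both probes and 2 genes that move together cannot be told apart.

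**Figure D3:**
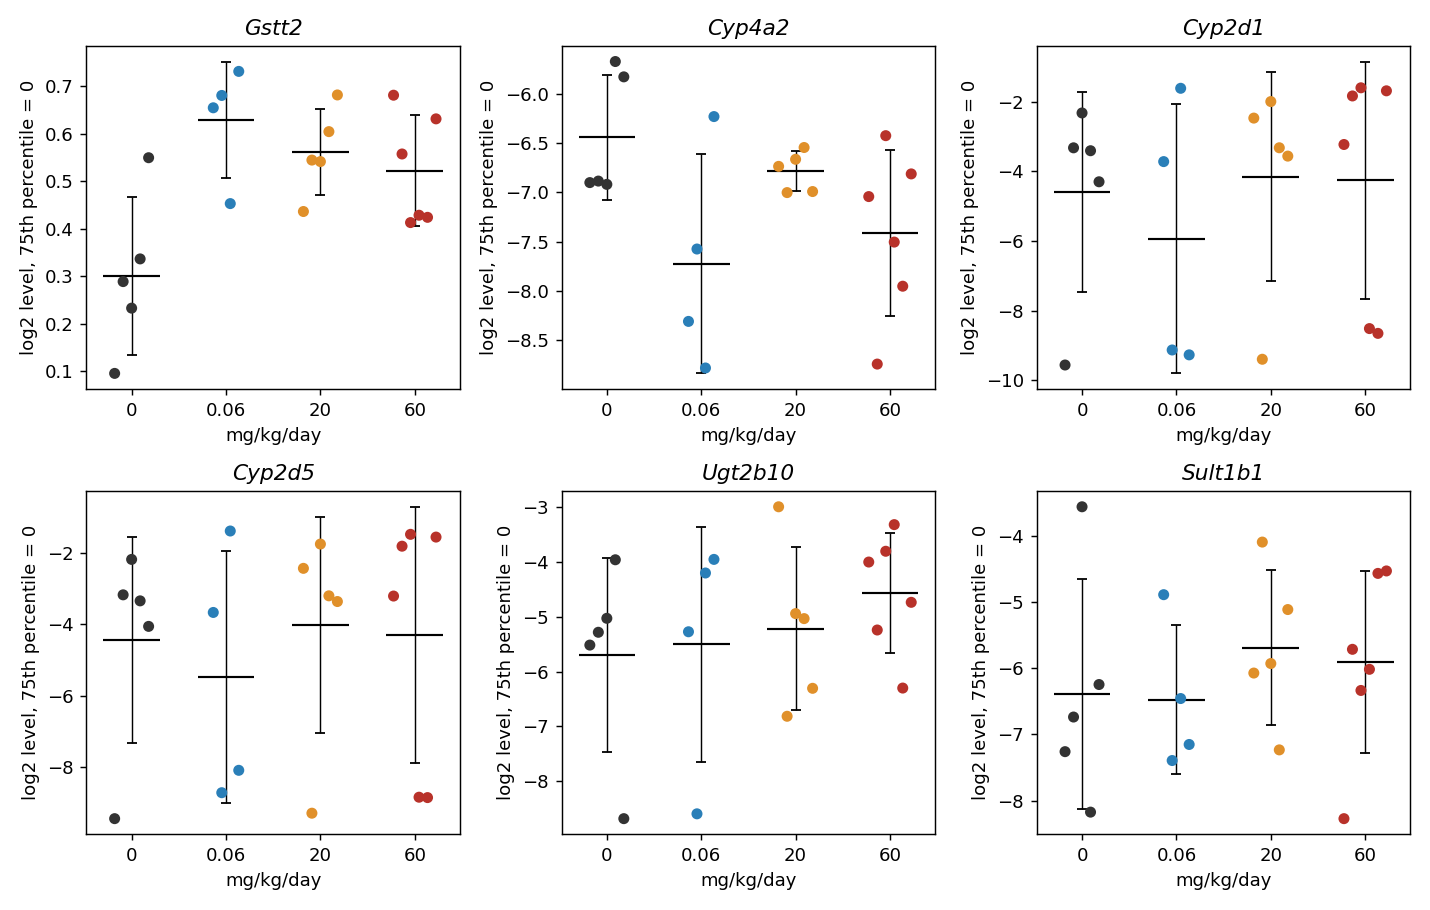
Log2 level relative to the array's 75th percentile (y axis) of 6 enzyme genes in each animal (points) by the dams' dose (x axis, mg/kg/day); bars are the mean and SD of the 5, 4, 5 and 6 animals. Gstt2 and Cyp4a2 had the smallest unadjusted p; Cyp2d1 and Cyp2d5 fall into a high set and a set below -8 in every group.

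Other enzymes had their lowest or highest values on the arrays low in Cyp17a1. On the 5 arrays low in Cyp17a1, in the order control 3, 0.06 replicate 1, 20 replicates 2 and 5, and 60 replicate 5, Gsta2 lay at 0.24, 0.55, 1.16, 1.08 and 0.40. On the other 15 arrays it lay between 1.83 and 3.54. Gsta5 lay at 1.16, 1.29, 1.78, 1.86 and 1.27 there and between 2.08 and 3.25 elsewhere. These are the lowest 5 values of both genes. Lhcgr, the theca and luteal receptor for LH, lay between -3.63 and -3.01 on the same 5 arrays and between -1.69 and 2.10 on the others. The other 3 markers of the theca and interstitial list did not separate these arrays: Insl3 lay between 1.39 and 1.85 there and between 0.90 and 3.03 elsewhere, Hsd3b1 between 7.28 and 7.63 against 7.15 to 7.55, and Star between 5.39 and 5.71 against 4.38 to 5.55. Each dose group held 1 or 2 of these arrays.

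A few enzymes were highest on those 5 arrays. Cyp2j3 lay at -2.39, -2.77, -2.49, -2.46 and -2.70 there and between -3.91 and -3.07 elsewhere. Cyp4f5 lay at -0.42, -0.74, -0.43, -0.71 and -0.33, and between -1.52 and -1.02 elsewhere. Gstp1 lay at 2.58, 2.59, 2.65, 2.55 and 2.59, and between 2.17 and 2.50 elsewhere. Sult1b1 lay at -3.57, -4.89, -4.10, -5.12 and -4.57, and between -8.27 and -4.53 elsewhere, where 60 replicate 6 overlapped. Sult1a1 lay at 1.16, 1.09, 1.40, 1.41 and 0.97 against -0.49 to 1.05, again with an overlap. These sets were seen in the values and have no test, and the part of the ovarian state in any dose difference was not tested. Without the 5 arrays limma again called 0 enzymes at every dose.

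Ugt2b10, a glucuronosyltransferase, was lowest where Akr1c18 was lowest. Its levels were -5.52, -5.28, -5.03, -3.96 and -8.68 in the controls and -5.27, -8.60, -4.20 and -3.95 at 0.06 mg/kg/day. They were -2.99, -6.82, -4.94, -5.03 and -6.31 for the middle dose and -4.003, -5.24, -3.81, -3.32, -6.30 and -4.74 for the highest. The 2 lowest animals were control 5 and 0.06 replicate 2, the arrays nearly without Akr1c18. The 3 next lowest, at -6.82, -6.31 and -6.30, were arrays low in Cyp17a1 (20 replicates 2 and 5, and 60 replicate 5). The other arrays low in Cyp17a1, control 3 at -5.03 and 0.06 replicate 1 at -5.27, lay near the median of -5.03. On control 5 and 0.06 replicate 2, Gsta1 was highest, at 6.20 and 6.38 against 4.73 to 5.83 elsewhere, and Gsta3 at 4.78 and 5.05 against 3.18 to 4.46. Gstm7 was also highest there, at 1.66 and 2.01 against 0.04 to 1.14, as was Gstm5, at 0.78 and 0.65 against -0.50 to 0.23.

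**Figure D4:**
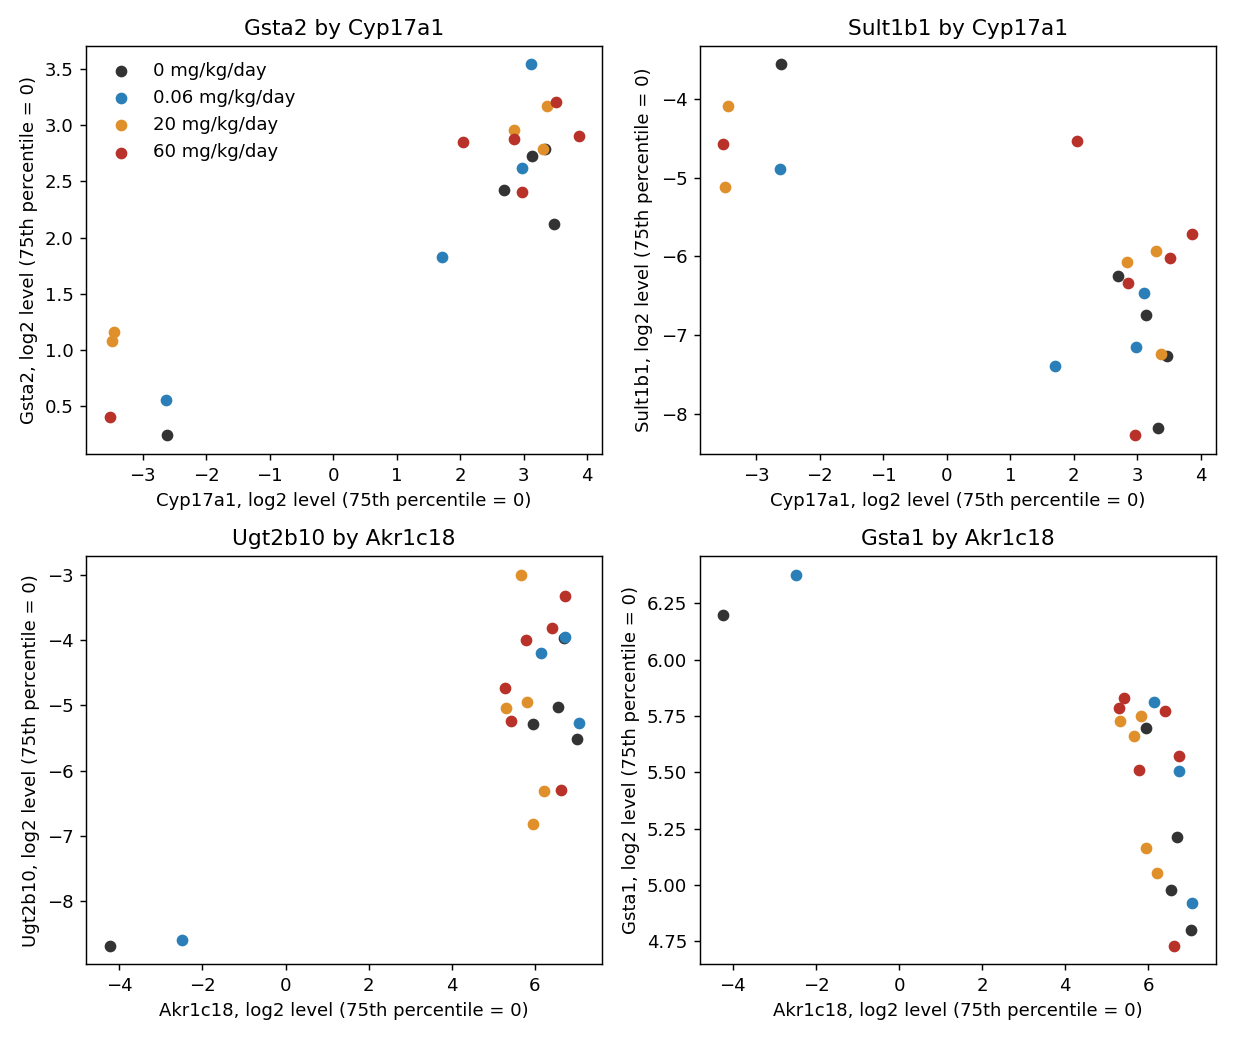
Log2 level of 4 enzyme genes (y axes) against the level of Cyp17a1 (upper panels) or Akr1c18 (lower panels) on the same array (x axes), both relative to the array's 75th percentile; each point is 1 animal, coloured by dose. Points of each dose lie in both the low and the high Cyp17a1 sets, and Ugt2b10 is below -8 on the 2 arrays low in Akr1c18.

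The stretches before Gsta1 and Gsta3 are shown because both alpha enzymes were highest on the same 2 arrays. They are RefSeq sequences of GRCr8, 5′ to 3′, Gsta1 on the minus and Gsta3 on the plus strand, outside the genes' annotated spans, with the longest shared run (20 bases) in capitals.
Gsta1 chr9:31216607-31216782: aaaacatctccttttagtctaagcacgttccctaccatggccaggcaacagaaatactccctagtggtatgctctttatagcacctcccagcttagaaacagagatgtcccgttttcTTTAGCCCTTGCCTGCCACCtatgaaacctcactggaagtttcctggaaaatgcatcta
Gsta3 chr9:31154739-31154988: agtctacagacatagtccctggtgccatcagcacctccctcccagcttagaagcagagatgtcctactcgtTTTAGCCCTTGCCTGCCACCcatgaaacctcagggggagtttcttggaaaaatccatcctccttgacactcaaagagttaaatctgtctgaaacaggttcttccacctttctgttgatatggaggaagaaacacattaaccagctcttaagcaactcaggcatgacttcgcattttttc
The best local alignment paired 89 bases, 80 of them identical (89.9%), with 5 gap bases. Gsta3 holds TGACNNNGC, the core of the antioxidant response element that the factor NRF2 binds, as do 10.1% of the 33469 promoter stretches, searched on both strands, and Gsta1 does not hold it in this window. Neither holds GCGTG, the core bound by AHR (25.9% of stretches), or AAGGTCA, the site of NR5A1 (3.99%). The shares are over stretches of 250 bases, the length of the Gsta3 stretch, while that of Gsta1 has 176. A motif missing from Gsta1 is therefore not set against stretches of like length. The promoter table held 85 of the 96 enzymes.

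Slides separated some enzymes more clearly than dose did. Between slides, with dose in the model, limma called 14 of the 59 enzymes (23.7%) at an adjusted p under 0.05, where it called 19.5% of all probes. Cyp4a1 had means of -6.46, -7.02 and -5.18 on slides 1, 2 and 3 (limma, adjusted p = 4.21e-08), Gstp3 -5.26, -4.995 and -4.25 (adjusted p = 7.69e-07), Cyp4a8 3.80, 3.73 and 4.75 (adjusted p = 8.71e-07) and Ugt1a9 -5.93, -5.93 and -5.17 (adjusted p = 5.48e-05). In these 4 genes every animal on slide 3 lay above every animal on slides 1 and 2. Cyp2c11, Cyp2b12, Cyp2b3, Ugt2b15, Cyp4x1, Cyp2b15, Cyp2d3, Cyp2b2 and Cyp4f40 were also highest on slide 3 by their means, and Sult1c2a was lowest there. Between 77.1% and 83.4% of spots were well above background on slide 3 and between 74.8% and 79.1% on the other two, and the part of this in the slide difference was not tested. Slide 3 held 2, 1, 3 and 1 animals of the 4 rising doses. The difference of Cyp4a1 at 60 mg/kg/day was -0.91 ± 0.44 log2 (SE, limma, unadjusted p = 0.056) without slide in the model and -0.48 with it (unadjusted p = 0.0015), and it passed the adjusted test in neither. That of Cyp4a8 was -0.29 without slide and -0.05 with it.

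**Figure D5:**
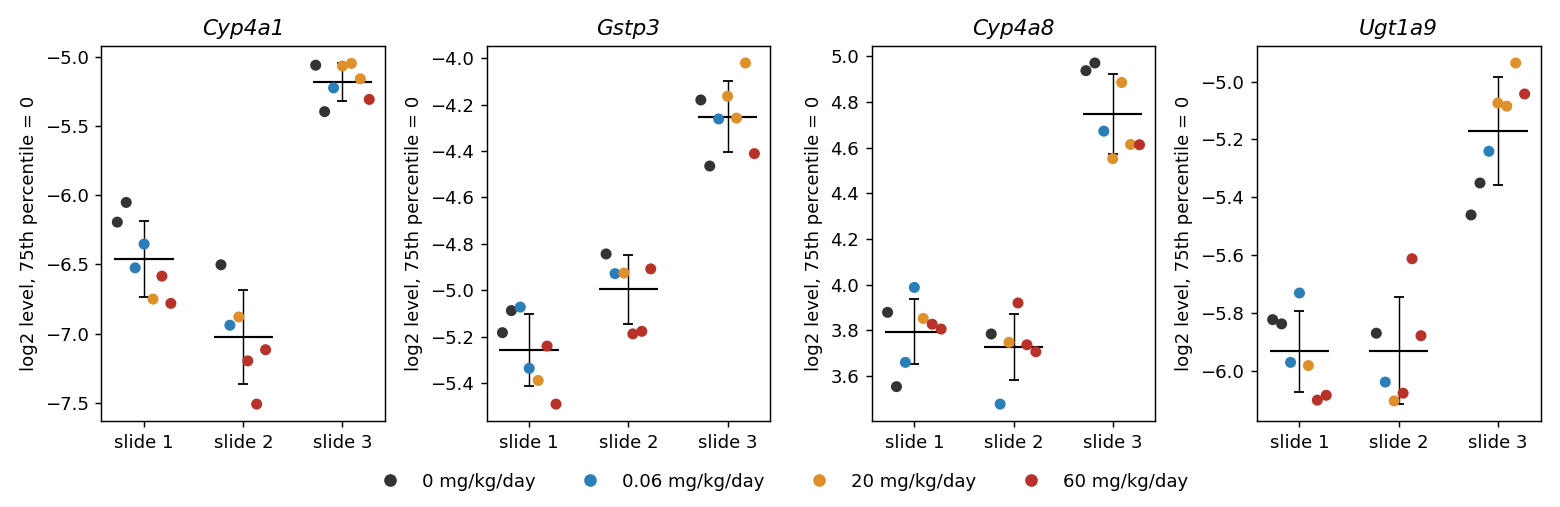
Log2 level relative to the array's 75th percentile (y axis) of 4 enzyme genes by slide (x axis); each point is 1 animal, coloured by dose, and bars are the mean and SD of the 7, 6 and 7 arrays. All 7 animals on slide 3 lie above all others in these 4 genes.

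The rest of the pathway was widely present and likewise gave 0 calls (limma). Of 15 regulators, 13 were well above background on all 20 arrays. Among them were Ahr (-6.74 to -4.45), Nr1i2, which encodes PXR (-3.09 to -0.69), Ppara (-5.52 to -4.08) and Nfe2l2, which encodes NRF2 (1.81 to 2.45), while Nr1i3, which encodes CAR, was on 8 arrays. Among the 15 regulators, 2, 1 and 1 were higher and 1, 0 and 1 lower at the 3 rising doses (limma, unadjusted p under 0.05). The share of all probes with such a p in either direction was 3.06%, 4.57% and 6.34%. All 9 redox partners and haem enzymes were on all 20. At an unadjusted p under 0.05, 2, 0 and 3 of these 9 were higher at the 3 rising doses, where 3.06%, 4.57% and 6.34% of all probes had such a p in either direction, and their median difference at 60 mg/kg/day was 0.25 beside -0.04 over all probes. Por, the reductase that feeds electrons to every microsomal P450, differed by 0.51 ± 0.23 log2 (SE) at 60 mg/kg/day (limma, adjusted p = 0.777) and Alas1, the first enzyme of haem synthesis, by 0.72 ± 0.31 (adjusted p = 0.777). Fdxr, the other of the 3 at that dose, differed by 0.27 ± 0.13 (limma, adjusted p = 0.777). The 2 at 0.06 mg/kg/day were Fdxr and Pgrmc1. Of 25 other phase I enzymes all were on 20 arrays, of 20 other phase II enzymes 18, and of 14 export and uptake transporters 13. Among the 19 other phase II enzymes tested, 0, 0 and 2 were higher and 0, 1 and 0 lower at the 3 doses. The limit was again an unadjusted p under 0.05 (limma), beside the same shares of all probes. Of the transporters 0 had a higher and 2 a lower level at 60 mg/kg/day at an unadjusted p under 0.05, beside the same 6.34%: Abcb1a, a P-glycoprotein, at -0.91 ± 0.38 and Abcc3 at -0.26 ± 0.12 (limma, adjusted p = 0.777 for both).

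Ephx2, the soluble epoxide hydrolase that removes the epoxides made by Cyp2j enzymes, had an unadjusted p under 0.05 at every dose. It was the 1 such gene of the 25 other phase I enzymes at each dose, beside 3.06%, 4.57% and 6.34% of all probes. Its control levels were -6.60, -6.32, -3.56, -2.49 and -3.29, and the 15 dosed animals lay between -3.55 and -1.82. Controls 1, 2 and 3 lay below all dosed animals, control 3 by a small margin, and controls 4 and 5 overlapped them. The comparisons at the 3 doses share these controls. The differences were 1.59 ± 0.68, 1.52 ± 0.64 and 1.70 ± 0.62 log2 (SE), with limma's adjusted p of 1.00, 0.933 and 0.777. Macrophage markers lay above the control mean in 6 of 6 genes at each dose, beside 43.5%, 57.9% and 39.4% of all probes. At 60 mg/kg/day 5 of them had an unadjusted p under 0.05, beside 6.34% of all probes, with 0 called (limma). Their mean level ran from 0.84 to 1.56 over the controls and from 1.101 to 2.10 at 60 mg/kg/day. Stromal markers lay above the control mean in 2, 5 and 5 of 5 genes at the 3 rising doses, 2 of them at an unadjusted p under 0.05 at 20 mg/kg/day, beside 4.57% of all probes, with 0 called (limma). Their mean level ran from 2.36 to 3.06 over the controls and from 2.75 to 3.31 at 20 mg/kg/day. Other marker lists went both ways. Of 5 granulosa markers, 1 was higher and 2 were lower at an unadjusted p under 0.05 at 20 mg/kg/day, with 0 called (limma). Oocyte markers lay above the control mean in 0, 0 and 5 of 5 genes at the 3 rising doses. Endothelial markers did so in 2, 0 and 0 of 4 genes, and erythrocyte markers in 3, 0 and 0 of 3. The part of these cells in the enzyme values was not tested.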

How the data were processed

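Per the labels' protocols, RNA of whole frozen ovaries was labelled with Cy3 and hybridised to 1-colour Agilent arrays, 1 animal each. Spot intensity is the authors' deposited scanner output. Per the file headers it came from a G2600D scanner and Feature Extraction 11.5.1.1 (settings GE1_1105_Oct12), with background already subtracted in the processed signal. The authors' own log2 values, deposited as one table for all arrays, served as an alternative, and their centring is not given in the sources used here.

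Values are log2 processed signal minus that of the array's 75th percentile over spots that are not controls; spots of a probe were averaged without outlier spots, and 0 spots were saturated. Transcript accessions were matched to RefSeq genes of assembly GRCr8: 18758 of 30367 probes had 1 symbol, 0 several and 11609 none. Probe coordinates are left out, since the design's build is rn4. Probes well above background, in at least as many spots as not, on at least 4 of 20 arrays were kept, and limma 3.58.1 in R 4.3.3 fitted the 4 group means to all arrays, with Benjamini-Hochberg adjustment over 23795 probes. The median residual SD was 0.281 log2, and the number of arrays limits the precision. The steps were tested on simulated data. Dose 0 was the control of each comparison. Alternatives were quantile scaling, another percentile, background correction, filters, outlier spots, other probes, the deposited values, the variance model, slide or replicate block, and leaving out arrays.

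Named with values were enzymes on all 20 arrays, those with an unadjusted p under 0.05 in any of the 5 tests, and the 10 with the largest range; enzymes outside these were named after their values were seen. The members and lists were chosen with earlier results of these data known. For Cyp2c11 and Cyp2b12, not well above background in 1 dose group, the bound on the fold is under 1 and is not printed.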

Additional observations from a re-analysis of the deposited data

Results flagged for a closer look

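Single animals lay far from the rest of their dose group in 19 of the 192 groups tested, the 4 dose groups of each of the 48 named enzymes. The gap to the nearest other animal, as a share of the group's range, was above Dixon's critical value at the 95% level. Chance passes that value in about 1 of 20 groups that are independent and not picked by their values. These groups are neither. Some named enzymes, Cyp2d1 and Cyp2d5 among them, were picked for a large range over the same arrays. All enzymes also share the same 20 animals. The count of 19 therefore cannot be set against that rate. Values are log2 levels relative to the array's 75th percentile.

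Of the 19 values, 6 belonged to 60 replicate 5, an array low in Cyp17a1. Gsta1 stood there at 4.73, Gsta2 at 0.40, Gsta3 at 3.18 and Gsta5 at 1.27, each below the other 5 animals of its group, while Cyp4f5 at -0.33 and Gstp1 at 2.59 lay above them. Gsta2 was also low on control 3, at 0.24, another array low in Cyp17a1. Cyp4f6 was low on 0.06 replicate 1, at 1.07.

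Cyp2d1 stood apart on control 1 at -9.56 and on 20 replicate 2 at -9.39, and Cyp2d5 on the same arrays at -9.46 and -9.30. Groups with 2 such animals, at 0.06 and 60 mg/kg/day, cannot be picked out by this test.

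On control 5, an array low in Akr1c18, Gstm5 stood above its group at 0.78 and Gstm6l at -2.20. On 0.06 replicate 2, the other such array, Cyp4b1 stood above its group at -2.97.

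Cyp4a8 stood at 4.61 on 60 replicate 6, the one animal of its group on slide 3. Cyp4v3 stood at -3.71 on 60 replicate 1, Gstm6 at -5.07 on 60 replicate 4 and Cyp2d4 at -3.37 on 20 replicate 3, each below its group.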

How the results depend on the processing

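The count of enzymes called stayed at 0 in each of the 5 tests under all 33 alternatives run, leaving out each array in turn included (0 throughout). The lowest adjusted p under any of them was 0.360, 0.473 and 0.455 at the 3 rising doses, 0.480 for the trend and 0.525 for the joint test (limma). With no filter on dim probes, all 96 enzymes were tested and 19, 20 and 20 had an unadjusted p under 0.05 at the 3 doses. These counts include dim enzymes such as Cyp3a2, well above background on 0 arrays, with group means of -9.60, -9.15, -9.21 and -9.24 from 0 to 60 mg/kg/day. Without slide 3, 7 of 59 had an unadjusted p under 0.05 at 0.06 mg/kg/day. The labels do not say that replicate numbers pair animals, and the numbers went partly with slide: replicate 1 of every group was on slide 1. Deviations of animals with the same number correlated between -0.30 and 0.34 over 27 pairs, with a mean of 0.01. A replicate block is therefore partly a slide block, and these correlations cannot settle whether animals were paired. With the replicate block limma called 0, and 2, 1 and 7 enzymes had an unadjusted p under 0.05. Leaving out control 3 also gave 7 at 60 mg/kg/day. The share of all probes with such a p is not given for these settings, so these counts are no result about the enzymes. Uncalled differences of the 48 named enzymes changed sign in 26 of 144 cases with normexp background correction, 11 of 144 with quantile normalization, 11 with slide as a block, 9 with the deposited table, 28 without the 2 arrays lowest in Akr1c18, 16 without the 5 low in Cyp17a1, 31 without slide 3, 37, 50 and 56 within slides 1, 2 and 3 alone, 11 of 30 with another probe of the gene and 190 of 2880 when 1 array was left out. Normexp ran on the median signals, and the 2 settings that leave out arrays low in Akr1c18 or Cyp17a1 and the one without slide 3 were chosen after seeing the data; normexp on mean signals was not run. Of 16 pairs of probes of one enzyme, 4 differed in whether they had a signal on at least 4 arrays, and 2 of the 11 pairs tested had the same sign at all 3 doses. Of the 96 enzymes with a probe, 37 were too dim to be tested.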

Other observations

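Of the enzymes, 7 were well above background in a single animal. Cyp4a3, a fatty acid hydroxylase, stood at -6.57 in 60 replicate 4 and between -9.60 and -8.67 in the other 19 animals. Cyp2c24 stood at -6.12 in 60 replicate 5 and between -9.64 and -8.67 elsewhere. Ugt2b1, a steroid and phenol glucuronosyltransferase, stood at -7.59 in control 5 and between -9.93 and -8.45 elsewhere. Cyp1a2 stood at -7.66 in 20 replicate 4 and between -9.72 and -8.49 elsewhere. Sult2a6, a hydroxysteroid sulfotransferase, stood at -7.49 in 0.06 replicate 1 and between -9.76 and -8.12 elsewhere. Cyp3a9, a steroid and drug hydroxylase, was called in control 4 at -7.04, and 20 replicate 5 lay higher, at -6.77, without the call. Sult2b1, also a hydroxysteroid sulfotransferase, was called in control 4 at -7.28, with control 5 at -7.26 and without the call. The 7 calls fell on 6 animals. None of these genes was tested for dose, because each was well above background on fewer than 4 arrays.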
